A study of Mus musculus with 15 samples.

Results

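Emx2, Lhx2, Otx1, Otx2, En1, En2, Gbx2, Lmx1b and Irx3 are 9 transcription factor genes that mark position along the axis from forebrain to hindbrain. They were listed by name, with earlier results of these data known, and each matched 1 Ensembl ID among the 54232 genes of the deposited tables. Expression was measured by mRNA sequencing of mouse brain tumours collected from the frontal cortex. The study asked how expression of the H3.3G34R histone and loss of Atrx, a chromatin remodeller that deposits histone H3.3, each alter gene expression there.

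All mice were C57BL/6, carried Nestin Tv-a, which puts the receptor for RCAS viruses on Nestin-expressing cells, and had p53 fl/fl alleles. All were given cortical injections of DF-1 chicken cells that produce RCAS-Cre and RCAS-PDGFA, so the p53 fl/fl alleles, Cre and the PDGFA ligand were shared by every group. The Atrx-floxed G34R group (4 libraries) also had ATRX fl/fl alleles and received RCAS-H3.3G34R-GFP. The Atrx-floxed H3.3WT group (4 libraries) had ATRX fl/fl alleles and received RCAS-H3.3WT-GFP. The Atrx-intact G34R group (3 libraries) had p53 fl/fl alleles without ATRX fl/fl and received RCAS-H3.3G34R-GFP. The Atrx-intact H3.3WT group (4 libraries) had the same alleles and received RCAS-H3.3WT-GFP. Tumours were taken when the mice reached a functional end point, and the labels give neither age nor sex. Cre acts only in infected Nestin-expressing cells, so host cells within a tumour keep their floxed alleles. The labels do not say that libraries of a group came from separate animals, so the p-values measure the spread between libraries. Each title holds a pair of codes whose meaning the labels do not give. The second code differs in all 15 libraries, but the first is shared by replicates 1 and 4 of the Atrx-floxed G34R group, by replicates 2 and 3 of the Atrx-intact G34R group and by replicates 3 and 4 of the Atrx-intact H3.3WT group, so these may not be independent.

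In the early neural tube, overlapping domains of homeodomain factors divide the brain into regions. Emx2 and Lhx2 act in the dorsal telencephalon, where the cortex forms, and Otx1 and Otx2 specify forebrain and midbrain. Otx2 and Gbx2 repress each other, and their shared border positions the isthmus, the organiser between midbrain and hindbrain. En1, En2 and Lmx1b act in and around the isthmus, and Irx3 is expressed from the caudal forebrain backwards.

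The promoters of 4 members are shown because the levels of these genes carry the comparisons that follow, and because in 2 of the 4 windows a second gene begins on the other strand. The sequences are from RefSeq on GRCm38.p6, 5′ to 3′ on the strand of the gene, with 250 bases before and 50 bases after the start, and each CG dinucleotide is in capitals. They lie at chr2:33641049-33641348 (minus strand, Lmx1b), chr19:59458440-59458739 (plus strand, Emx2), chr2:38339031-38339330 (plus strand, Lhx2) and chr1:89931127-89931426 (minus strand, Gbx2).
Lmx1b: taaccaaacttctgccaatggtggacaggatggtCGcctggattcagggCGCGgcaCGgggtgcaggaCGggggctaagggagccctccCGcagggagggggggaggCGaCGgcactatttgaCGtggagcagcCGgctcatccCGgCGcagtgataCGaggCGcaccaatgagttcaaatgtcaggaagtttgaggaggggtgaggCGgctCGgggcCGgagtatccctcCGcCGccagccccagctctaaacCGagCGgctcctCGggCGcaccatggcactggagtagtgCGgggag
Emx2: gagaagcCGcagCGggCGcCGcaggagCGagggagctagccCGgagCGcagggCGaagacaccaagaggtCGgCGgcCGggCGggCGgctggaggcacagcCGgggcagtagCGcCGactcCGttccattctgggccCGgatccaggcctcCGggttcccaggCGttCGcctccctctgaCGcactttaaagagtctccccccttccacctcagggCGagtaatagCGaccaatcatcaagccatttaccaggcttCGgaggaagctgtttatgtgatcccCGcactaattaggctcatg
Lhx2: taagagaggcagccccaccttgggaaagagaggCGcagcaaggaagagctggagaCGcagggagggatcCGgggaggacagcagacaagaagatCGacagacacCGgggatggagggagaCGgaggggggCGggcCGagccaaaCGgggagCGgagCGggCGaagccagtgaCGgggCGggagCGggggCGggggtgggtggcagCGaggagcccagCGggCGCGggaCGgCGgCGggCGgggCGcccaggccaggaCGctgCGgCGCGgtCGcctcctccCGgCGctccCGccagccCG
Gbx2: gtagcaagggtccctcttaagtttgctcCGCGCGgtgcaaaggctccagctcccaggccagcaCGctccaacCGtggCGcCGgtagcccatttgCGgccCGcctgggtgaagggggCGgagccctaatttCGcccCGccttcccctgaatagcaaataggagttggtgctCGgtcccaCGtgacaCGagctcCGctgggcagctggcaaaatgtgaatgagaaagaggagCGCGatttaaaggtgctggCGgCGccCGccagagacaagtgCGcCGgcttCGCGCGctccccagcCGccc

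These windows hold 24 CG dinucleotides at Lmx1b, 26 at Emx2, 34 at Lhx2 and 27 at Gbx2, against a median of 7 and a 90th percentile of 31 over 32851 mouse promoters of the same 300 bases. Windows were listed for 7 of the 9 members (11 windows), and those at Otx2 had 6 to 16 CG. The antisense gene C130021I20Rik begins inside the Lmx1b window, 95 bases from the Lmx1b start, and Emx2os begins inside the Emx2 window, 55 bases from the Emx2 start. The letters TAATTA, the core bound by many homeodomain factors, were searched on both strands and occur in the Emx2 window and in 2 Otx2 windows, and in 5.29% of all promoters. TAATCC, the core bound by Otx factors, occurs in 1 Otx2 window and in 7.06% of all promoters, and the TATA box letters TATAAA in 1 Otx2 window and in 13.6% of all promoters. The first 2 motifs share the letters TAAT, and a match is a description of the letters only.

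By chromosome, Gbx2 lies at chr1:89927956-89931179, En1 at chr1:120602418-120607992, Lmx1b at chr2:33560965-33640511 and Lhx2 at chr2:38339281-38369733. En2 lies at chr5:28165694-28172166, Irx3 at chr8:91798525-91802067, Otx1 at chr11:21994764-22002897, Otx2 at chr14:48657677-48673819 and Emx2 at chr19:59458372-59465357. These are the spans of the mm10 gene annotation, and all 9 genes are protein coding. The Lmx1b start that RefSeq lists is not in a transcript of that annotation.

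Libraries held 22807315 to 35679129 reads in genes. Atrx stood at 2376 ± 619 normalized counts in Atrx-floxed tumours (SD, n = 8) and at 6687 ± 1395 in Atrx-intact tumours (SD, n = 7), and the groups did not overlap (log2 -1.50, SE 0.19, limma adjusted p = 0.00293). Replicate 3 of the Atrx-intact H3.3WT group stood apart. The summed level of 7 cortical projection neuron markers was 124420 normalized counts in it, against 173 to 6670 in the other 14 libraries. Pdgfra, the PDGFA receptor of glioma and oligodendrocyte progenitor cells, stood at 5471 there, against 52093 to 133070 elsewhere. Cortical neuron transcripts were thus low in the other 14 libraries, with the vesicle gene Slc17a7 at 5.83 to 316 normalized counts, against 40983 in replicate 3. Replicate 3 of the Atrx-floxed G34R group held the 6670, against 1165 to 1304 in the rest of its group. It also had 78370 normalized counts over the myelinating oligodendrocyte markers, against 5243 to 28918 in the rest of its group. Gabra6, a marker of cerebellar granule neurons, was at 0 in all 15 libraries, and the summed level of its list of 4 markers was 184 to 877. In bulk tumours, fewer cells of a type and less RNA per cell cannot be told apart.

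Of the 9 genes, 8 had reads in every library, the isthmus genes En1, En2, Gbx2 and Lmx1b among them. In its lowest library, however, Emx2, Otx1 or En1 had only 1 read and Gbx2 only 2, fewer than the 3 reads that a count of 0 allows. Per kilobase of exon and as a mean over the 15 libraries, the normalized count was 175 for Lhx2, 151 for En2, 135 for Lmx1b, 114 for En1, 75.2 for Irx3, 36.4 for Emx2, 18 for Gbx2, 6.37 for Otx1 and 0.298 for Otx2. The order of these levels therefore mixed forebrain and isthmus genes in tumours labelled frontal cortex. Replicate 3 of the Atrx-intact H3.3WT group, the library rich in cortical neuron transcripts, had the highest Emx2, Lhx2 and Otx1 of all 15 libraries and the lowest En1, En2, Lmx1b and Irx3. What part the cortical tissue in that library has in these extremes was not tested.

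**Figure D1:**
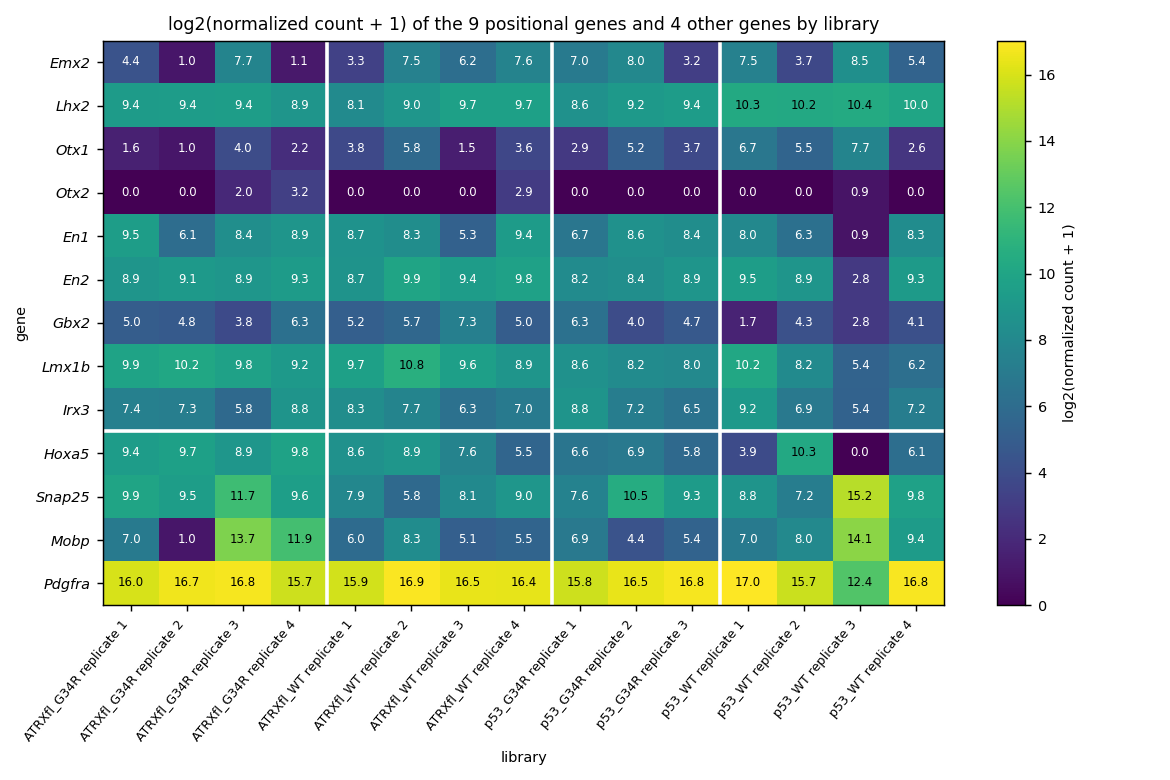
Heat map of the level of each of the 9 genes, and of Hoxa5, Snap25, Mobp and Pdgfra, in each of the 15 libraries (columns, by group; colour, log2 of the normalized count + 1). Replicate 3 of the Atrx-intact H3.3WT group has high Snap25 and low En1, En2 and Lmx1b, and Otx2 is at or near 0 throughout.

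Lhx2, a LIM homeodomain factor that maintains cortical progenitors, had the smallest spread within groups of the 8 tested members when all 15 libraries were used. It stood at 659, 692, 697 and 474 normalized counts in Atrx-floxed G34R tumours and at 280, 501, 811 and 818 in Atrx-floxed H3.3WT tumours. In Atrx-intact G34R tumours it stood at 392, 601 and 692, and in Atrx-intact H3.3WT tumours at 1281, 1212, 1380 and 1031. The 4 Atrx-intact H3.3WT libraries were thus above all 11 others, and the other 3 groups overlapped one another. Within groups the SD of log2 Lhx2 was 0.45, and 35.9% of 17776 genes varied less, with a median SD of 0.60 over those genes.

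Emx2, a homeodomain factor that sets the size of cortical areas and acts in the hippocampal field, varied far more between libraries than between groups. Its normalized count was 19.4, 1.02, 203 and 1.21 in Atrx-floxed G34R tumours and 8.80, 176, 71.4 and 197 in Atrx-floxed H3.3WT tumours. It was 127, 248 and 7.99 in Atrx-intact G34R tumours and 175, 11.7, 349 and 41.5 in Atrx-intact H3.3WT tumours. Each group held a library at 11.7 or less and another at 197 or more, so all groups overlapped, and its within-group SD of 2.50 on the log2 scale exceeded that of 98.6% of genes. The antisense gene Emx2os, which begins in the promoter shown above, spanned 0.887 to 132 normalized counts and had a Pearson r of 0.856 with Emx2 over the 15 libraries, given as a description. The annotated spans of the 2 genes share 264 bases, and since the counting's strand setting is not given in the sources used here, their reads cannot be told apart in that stretch. The 203 of Atrx-floxed G34R replicate 3 came from the library with the highest cortical neuron, oligodendrocyte and astrocyte marker sums of its group, and the 349 of Atrx-intact H3.3WT replicate 3 from the one with the highest cortical neuron sum of all. Atrx-floxed H3.3WT replicate 2, with Emx2 at 176, had the lowest cortical neuron sum of all libraries, 173. Replicate 4 of that group, with Emx2 at 197, had its highest cortical neuron sum, 701, but its lowest oligodendrocyte sum, 4164. Atrx-intact G34R replicate 2, with Emx2 at 248, likewise had the highest cortical neuron sum of its group, 1685, and the lowest oligodendrocyte sum, 4194. The part of such cells in the Emx2 values was not tested.

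Otx1, an orthodenticle homeodomain factor of deep cortical layers, was low. It stood at 1.94, 1.02, 14.8 and 3.62 normalized counts in Atrx-floxed G34R tumours, at 12.7, 56.1, 1.74 and 11.4 in Atrx-floxed H3.3WT tumours and at 6.24, 34.6 and 12.4 in Atrx-intact G34R tumours. In Atrx-intact H3.3WT tumours it stood at 106, 43.6, 207 and 5.19. The highest 2 libraries were both Atrx-intact H3.3WT, but replicate 4 of that group lay within the range of both Atrx-floxed groups and under all 3 Atrx-intact G34R libraries.

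Otx2, its paralogue, which is required for forebrain and midbrain and which choroid plexus also expresses, was read in 4 of 15 libraries. It had 3 reads in replicate 3 and 7 in replicate 4 of the Atrx-floxed G34R tumours, 7 in replicate 4 of the Atrx-floxed H3.3WT tumours, 0 in the Atrx-intact G34R tumours and 1 in replicate 3 of the Atrx-intact H3.3WT tumours. The 11 libraries with 0 reads allow up to 3 reads each, or 2.6 to 3.5 normalized counts over these 11 libraries, which covers counting error only. Its mean was under 10 normalized counts in each comparison, so it entered no test, and no difference was detectable at this depth. The library with the highest Otx2, at 8.44 normalized counts, was also the one with the highest Ttr, a choroid plexus marker, at 578 normalized counts against at most 58.2 elsewhere, and its summed level of 5 choroid plexus markers was 670. By group that sum was 61.0 to 670 in Atrx-floxed G34R, 40.7 to 104 in Atrx-floxed H3.3WT, 87.8 to 121 in Atrx-intact G34R and 70.5 to 248 in Atrx-intact H3.3WT tumours. The 40.7, the lowest sum of all libraries, was that of Atrx-floxed H3.3WT replicate 4, which also had 7 Otx2 reads. The part of choroid plexus in the Otx2 reads was not tested.

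En1 and En2, the engrailed factors of midbrain and cerebellum, were among the higher members. En1 stood at 713, 66.1, 344 and 464 normalized counts in Atrx-floxed G34R tumours and at 413, 324, 38.3 and 662 in Atrx-floxed H3.3WT tumours. It stood at 102, 392 and 327 in Atrx-intact G34R tumours and at 249, 75.5, 0.855 and 312 in Atrx-intact H3.3WT tumours. Each group held a library at 102 or less and another at 312 or more, and all groups overlapped.

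En2 was steadier. It stood at 467, 556, 487 and 637 normalized counts in Atrx-floxed G34R tumours, at 418, 961, 687 and 867 in Atrx-floxed H3.3WT tumours and at 296, 344 and 470 in Atrx-intact G34R tumours. In Atrx-intact H3.3WT tumours it stood at 723, 476, 5.98 and 630. The 5.98 of replicate 3 lay far under the 14 other libraries, of which the lowest was at 296. The within-group SD of log2 En2 was 1.72 with that library and 0.37 without it, so that 93.3% of genes varied less with it and 30.7% of 17582 genes varied less without it. For En1 the SD was 2.21 with replicate 3 and 1.45 without it.

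Gbx2, the homeodomain factor that marks the hindbrain side of the isthmus, was low and uneven. It stood at 31.1, 27.4, 12.8 and 77.2 normalized counts in Atrx-floxed G34R tumours and at 35.2, 50.2, 161 and 31.2 in Atrx-floxed H3.3WT tumours. It stood at 79.0, 14.7 and 25.7 in Atrx-intact G34R tumours and at 2.17, 18.1, 5.98 and 16.6 in Atrx-intact H3.3WT tumours. All 4 Atrx-floxed H3.3WT libraries lay above all 4 Atrx-intact H3.3WT libraries, and the G34R groups overlapped both each other and the Atrx-intact H3.3WT group. D130058E05Rik, which overlaps Gbx2 on the other strand, gave 53 to 260 normalized counts in Atrx-floxed H3.3WT tumours and 7.26 to 29.8 in Atrx-intact H3.3WT tumours, which do not overlap either, and reads of the 2 genes cannot be told apart where they overlap.

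Lmx1b, a LIM homeodomain factor of the isthmus that midbrain dopamine and hindbrain serotonin neurons need, showed its clearest gap between the G34R groups. It stood at 959, 1145, 862 and 590 normalized counts in Atrx-floxed G34R tumours, against 390, 295 and 260 in Atrx-intact G34R tumours. It stood at 816, 1740, 781 and 465 in Atrx-floxed H3.3WT tumours, against 1165, 287, 41.9 and 74.7 in Atrx-intact H3.3WT tumours. The G34R groups did not overlap, while replicate 1 of the Atrx-intact H3.3WT group lay above all but 1 of the 8 Atrx-floxed libraries. C130021I20Rik, which begins in the Lmx1b promoter window, had its highest values, 651 and 612, in that replicate 1 and in Atrx-floxed H3.3WT replicate 2, and its lowest, 23.1 and 17.6, in Atrx-intact H3.3WT replicates 3 and 4. Its Pearson r with Lmx1b over the 15 libraries was 0.944. Summed markers of the neurons that use Lmx1b were low: the 3 serotonin neuron markers gave 35.6 to 258 normalized counts and the 4 dopamine neuron markers 64.0 to 603.

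Irx3, an Iroquois homeodomain factor, overlapped between all groups. It stood at 172, 154, 55.3 and 446 normalized counts in Atrx-floxed G34R tumours, at 321, 202, 79.3 and 123 in Atrx-floxed H3.3WT tumours, at 443, 148 and 89.6 in Atrx-intact G34R tumours and at 581, 115, 40.2 and 147 in Atrx-intact H3.3WT tumours. The group means lay within 181 to 227, and each group had an SD of 106 or more. Irx3os, its antisense gene, had a mean of 21.2 normalized counts and an r of 0.900 with Irx3.

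**Figure D2:**
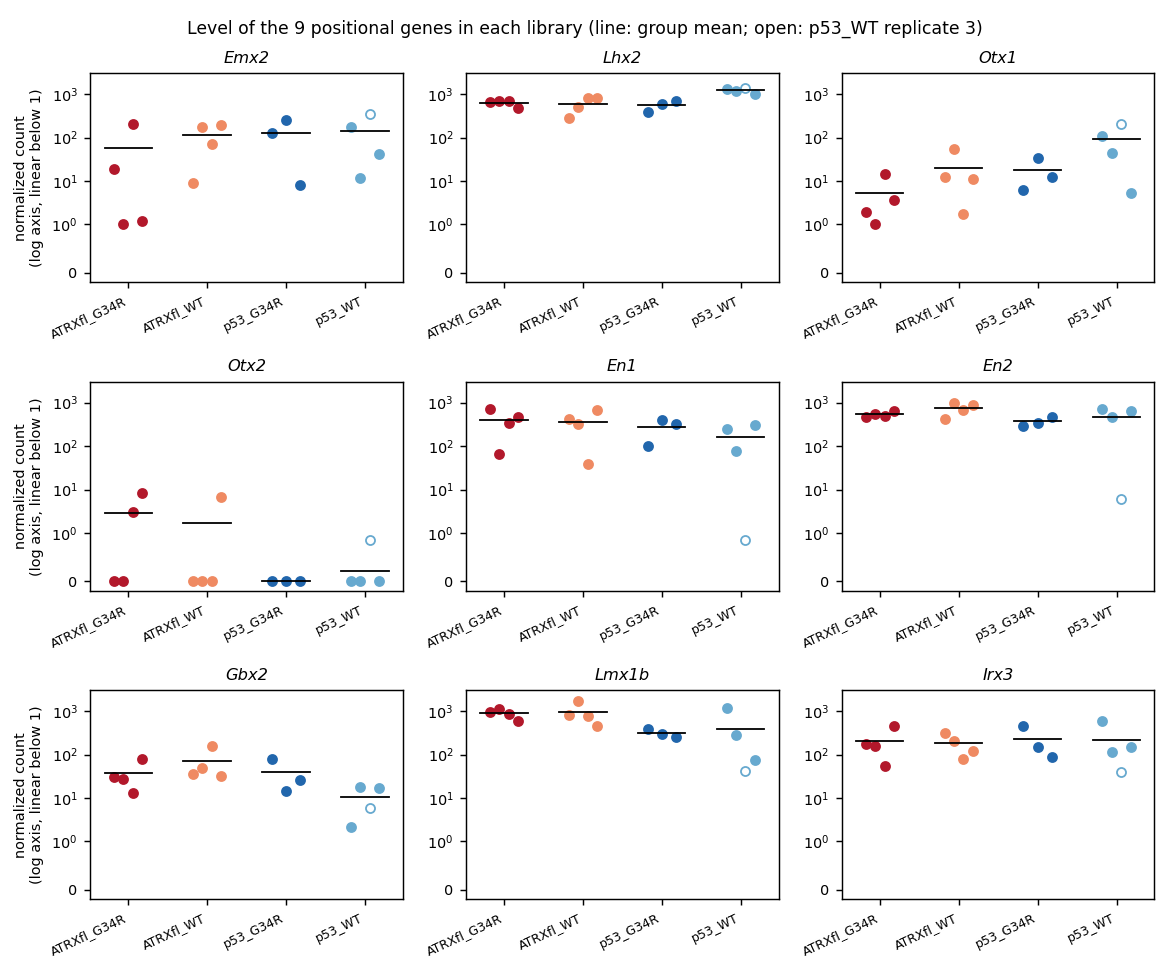
Normalized count of each of the 9 genes in each library (points; log axis, linear below 1; open points, replicate 3 of the Atrx-intact H3.3WT tumours) by group, with the group mean as a bar. For Lhx2 the 4 Atrx-intact H3.3WT libraries, at 1031 to 1380, sit above all others, and for Lmx1b the 4 Atrx-floxed G34R libraries, at 590 to 1145, sit above the 3 Atrx-intact G34R libraries, at 260 to 390.

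Ordered by group mean, only 1 pair of neighbouring groups did not overlap in their libraries for any member: Lhx2 averaged 1226 ± 147 in Atrx-intact H3.3WT tumours (SD, n = 4), and the next group, the Atrx-floxed G34R tumours, averaged 630 ± 106 (SD, n = 4). For Lmx1b the order by mean was Atrx-floxed H3.3WT (950 ± 549), Atrx-floxed G34R (889 ± 232), Atrx-intact H3.3WT (392 ± 526) and Atrx-intact G34R (315 ± 67.1). Neighbours in that order overlapped, and so did every neighbouring pair for the other 7 genes.

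The 5 pairs of groups that the authors compared were tested with limma on log2(value + 1) in the table deposited for each pair, and a gene was called at an adjusted p under 0.05 over all genes with a mean of at least 10. The pairs share control groups, so their results are not independent and are set side by side only. By limma and by edgeR, 0 of the 8 tested members were called in any of the 5 pairs, in either pooled comparison or in the interaction. DESeq2 on the recovered reads called Lmx1b in 1 pair and Lhx2 and Otx1 in another, as given below.

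With G34R against wild-type H3.3 in Atrx-floxed tumours, 0 of 8 members had an unadjusted p under 0.05 and 0 were separated, while 0% of all 17521 genes were called, 2.79% had an unadjusted p under 0.05 and 2.16% did not overlap between groups. The members split into 4 higher and 4 lower. The largest difference was that of Emx2, at 55.1 ± 96.4 against 111 ± 87.1 normalized counts (log2 -2.59, SE 1.52, limma adjusted p = 0.9997). It was -3.96 without replicate 3 of the G34R tumours and -1.74 without their replicate 2, with -1.0 by edgeR, so its size turned on single libraries and on the test. For Lmx1b, at 874 ± 226 against 930 ± 537 (SD, n = 4 each), the difference was 0.03 on the log2 scale with a 95% interval of -0.82 to 0.89, and its sign turned when single libraries were left out (-0.25 to 0.38). For Lhx2 the interval was -0.62 to 0.98.

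With G34R against wild-type H3.3 in Atrx-intact tumours, the background was 0% called, 1.47% with an unadjusted p under 0.05 and 2.61% without overlap. Of the 8 members, 1 (Lhx2) had an unadjusted p under 0.05 and did not overlap, at 575 ± 158 in G34R tumours (n = 3) against 1252 ± 146 in H3.3WT tumours (n = 4), a log2 difference of -1.15 (SE 0.28, 95% interval -1.79 to -0.51, limma adjusted p = 1.0). Without replicate 3 of the H3.3WT tumours it was -1.10. The sign of En2 turned on that library and on the test. The authors' deposited table, which includes that library, gives En2 a log2 difference of -0.31. By limma the log2 difference of En2 was 0.89 with that library and -0.73 without it. That of En1 was 2.04 with it and 0.38 without it.

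Atrx floxed against intact under G34R gave 0.0229% called, 3.39% with an unadjusted p under 0.05 and 4.64% without overlap over all genes. Of the 8 members, 1 (Lmx1b) met both of the looser criteria. It stood at 889 ± 234 in Atrx-floxed tumours (n = 4) against 315 ± 64.6 in Atrx-intact tumours (n = 3), a log2 difference of 1.47 (SE 0.28, 95% interval 0.82 to 2.12, limma adjusted p = 0.538). Leaving out 1 library at a time gave 1.34 to 1.66. The authors' deposited table gives 1.5 with an adjusted p of 0.00294, and DESeq2 on the recovered reads gave an adjusted p of 0.00144, so the call depends on the test, with adjusted p from 0.00144 to 1.0 over the alternatives. En2 stood at 536 ± 76.0 against 371 ± 91.7 (log2 0.55, SE 0.25, limma adjusted p = 0.9999), and 4 of the 8 members were higher and 4 lower.

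Atrx floxed against intact under wild-type H3.3 gave 0.0335% called, 3.76% with an unadjusted p under 0.05 and 2.65% without overlap. Of the 8 members, 3 (Lhx2, Gbx2 and Lmx1b) had an unadjusted p under 0.05, and Lhx2 and Gbx2 did not overlap. Gbx2 averaged 69.5 ± 61.9 in Atrx-floxed tumours against 10.8 ± 7.90 in Atrx-intact tumours (n = 4 each), a log2 difference of 2.58 (SE 0.78, limma adjusted p = 0.975), and 2.06 to 2.93 when 1 library was left out. Lhx2 averaged 602 ± 262 against 1230 ± 144 (log2 -1.15, SE 0.36, limma adjusted p = 0.975), or -1.09 without replicate 3 of the Atrx-intact tumours. Lmx1b averaged 949 ± 549 against 394 ± 529 (log2 2.22, SE 0.95, limma adjusted p = 0.975). That value was 1.52 without replicate 3 and 3.11 without replicate 1 of the Atrx-intact tumours, and the unadjusted p was no longer under 0.05 without replicate 3. En1 was 2.07 higher on the log2 scale with replicate 3 and 0.41 without it, neither passing the test.

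Both changes against neither, that is Atrx-floxed G34R against Atrx-intact H3.3WT tumours, gave 0.0227% called, 4.37% with an unadjusted p under 0.05 and 2.94% without overlap. Of the 8 members, 4 (Lhx2, Otx1, Gbx2 and Lmx1b) had an unadjusted p under 0.05, and Lhx2 did not overlap, at 611 ± 103 against 1184 ± 137 (n = 4 each). Its log2 difference was -0.96 (SE 0.21, limma adjusted p = 0.884), and -0.91 without replicate 3 of the Atrx-intact tumours. Otx1 averaged 5.17 ± 6.17 against 87.1 ± 84.3 (log2 -3.43, SE 1.13, limma adjusted p = 0.999), and -2.75 without replicate 3. The Atrx-floxed G34R libraries had 2, 1, 15 and 3 Otx1 reads, where a count of 0 allows up to 3. Otx1 thus reached the mean of 10 needed for a test only through the Atrx-intact group, and the size of its difference is uncertain. In the authors' deposited table Lhx2 stands at -0.95 (adjusted p 0.0331) and Otx1 at -4.07 (adjusted p 0.0309), and DESeq2 on the recovered reads gave adjusted p-values of 0.00569 for Lhx2 and 0.0473 for Otx1. Over the alternatives the adjusted p went from 0.00569 to 1.0 for Lhx2 and from 0.0473 to 1.0 for Otx1. Gbx2 differed by 1.76 (SE 0.77), and by 1.62 without replicate 3. Lmx1b differed by 2.26 (SE 0.91), by 1.56 without replicate 3 and by 3.15 without replicate 1. Without replicate 3, the unadjusted limma p of Gbx2 and Lmx1b was no longer under 0.05.

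**Figure D3:**
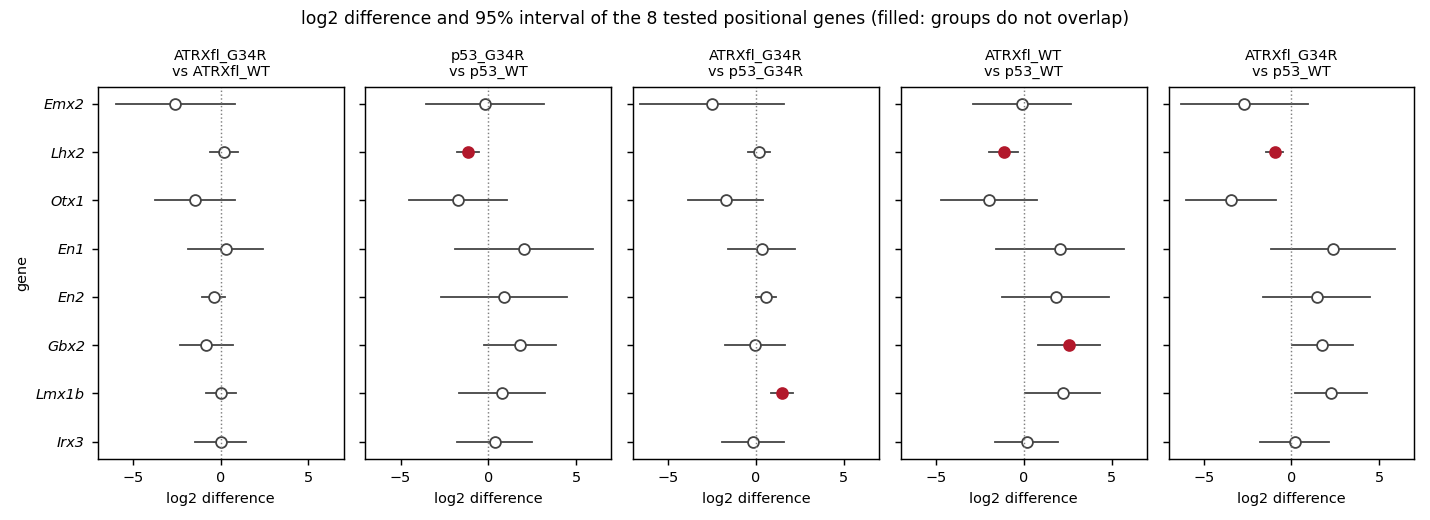
Log2 difference of each of the 8 tested genes in each of the 5 pairs of groups, first-named group minus second (points, limma estimate; lines, 95% interval; filled points, groups whose libraries do not overlap). The intervals of Lhx2 lie under 0 in the 3 pairs with Atrx-intact H3.3WT tumours as the second group, and that of Lmx1b lies above 0 in the pair of G34R groups.

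Over all 15 libraries, the Atrx and the histone effects were also fitted together. For Atrx floxed against intact, 0.107% of 17776 genes were called and 5.48% had an unadjusted p under 0.05, as did 3 of the 8 members. Lmx1b averaged 920 ± 392 in floxed tumours (n = 8) against 359 ± 377 in intact tumours (n = 7), a log2 difference of 1.88 (SE 0.55, 95% interval 0.70 to 3.05, limma adjusted p = 0.587). It was 1.5 to 2.3 when 1 library was left out, lowest without replicate 3 of the Atrx-intact H3.3WT tumours. Otx1 differed by -1.86 (SE 0.79, limma adjusted p = 0.883) and Gbx2 by 1.38 (SE 0.64, limma adjusted p = 0.910). Without that replicate 3 these were -1.5 and 1.21, with unadjusted p no longer under 0.05.

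For G34R against wild-type H3.3 over all libraries, 0% of genes were called, 2.37% had an unadjusted p under 0.05, and 0 of the 8 members did. En2 averaged 465 ± 116 in G34R tumours (n = 7) against 596 ± 299 in H3.3WT tumours (n = 8). Its log2 difference was 0.20 with replicate 3 of the Atrx-intact H3.3WT tumours and -0.54 without it (limma adjusted p = 1.0), where its unadjusted p was under 0.05.

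The interaction, the Atrx effect under G34R minus that under wild-type H3.3, had 0% of genes called and 2.05% with an unadjusted p under 0.05. Of the 8 members, 2 had one. Lhx2 gave 1.33 (SE 0.47, 95% interval 0.33 to 2.33, limma adjusted p = 1.0), since its floxed-against-intact difference was 0.19 under G34R and -1.15 under wild-type H3.3. Gbx2 gave -2.62 (SE 1.12, 95% interval -5.03 to -0.22, limma adjusted p = 1.0), with -0.04 under G34R and 2.58 under wild-type H3.3, and it was -3.14 to -1.97 when 1 library was left out. For Lmx1b the interaction was -0.75 with a 95% interval of -3.17 to 1.67. It was -0.05 without replicate 3 and -1.64 without replicate 1 of the Atrx-intact H3.3WT tumours, and its sign turned to 0.24 by edgeR.

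Other genes of the same positional code were read from lists of 17 forebrain, 14 midbrain and isthmus and 24 hindbrain genes, of which limma called 0 in each comparison. A list gene was tested when its mean over the libraries compared was at least 10, so some passed only through the group where they were high. The direction of such a gene is not independent of that filter, so the counts below are descriptions only. The authors' deposited tables hold an adjusted p under 0.05 for Hoxa2, Hoxa3, Hoxa4 and Hoxa5 in the pair of G34R groups and for Lmx1a in both changes against neither. In both changes against neither, 3 of 12 tested forebrain genes were higher with a list median of -0.61 on the log2 scale, against 8 of 9 midbrain and isthmus genes (median 1.29) and 12 of 14 hindbrain genes (median 1.77), where the median over all genes was -0.01. Among the genes that passed through 1 group only, Lmx1a averaged 50.6 against 3.15 and Fgf8 20.0 against 3.87 normalized counts. The forebrain gene Fezf2, counted as lower, averaged 6.54 against 108. In this pair 2, 3 and 2 genes of these lists had an unadjusted limma p under 0.05, as did 4.37% of all 17659 genes tested. The 2 hindbrain genes were Hoxa3 and Hoxa5, and Lmx1a and Fgf8 were among the 3 of the midbrain and isthmus list. Without replicate 3 of the Atrx-intact H3.3WT tumours the list medians were -0.10, 0.86 and 0.29, with 5 of 10, 7 of 10 and 11 of 14 genes higher. The genes that passed the filter were then not all the same. In Atrx floxed against intact over all libraries, 1 of 11 forebrain (median -0.28), 9 of 9 midbrain and isthmus (1.18) and 10 of 13 hindbrain genes (0.65) were higher, and 3 of 9 (-0.20), 7 of 9 (0.81) and 7 of 13 (0.15) without that library. In G34R against wild-type H3.3 in Atrx-intact tumours, 11 of 13 hindbrain genes were higher (median 0.58) with it and 4 of 13 (median -0.75) without it. That library has no part in G34R against wild-type H3.3 in Atrx-floxed tumours. There 4 of 9 forebrain (median -0.13), 7 of 9 midbrain and isthmus (0.16) and 12 of 14 hindbrain genes (0.87) were higher. Nor is it in Atrx floxed against intact under G34R, with 3 of 10 (-0.17), 8 of 9 (0.71) and 10 of 14 (0.69) higher.

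**Figure D4:**
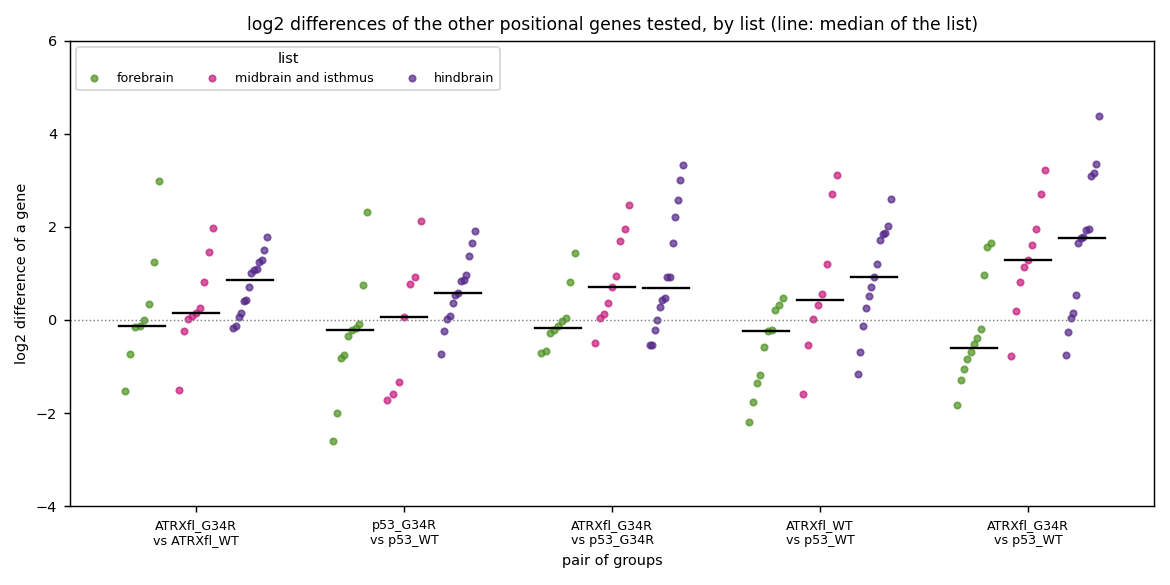
Log2 difference of each tested gene of the forebrain, midbrain and isthmus and hindbrain lists (points) in the 5 pairs of groups, with the list median as a bar; 1 forebrain gene counts in the median but is not drawn. In the pair of Atrx-floxed G34R against Atrx-intact H3.3WT tumours the medians are -0.61, 1.29 and 1.77.

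The hindbrain gene Hoxa5 stood at 722 ± 179 in Atrx-floxed G34R tumours (n = 4) against 90.6 ± 31.7 in Atrx-intact G34R tumours (n = 3), without overlap (log2 3.01, SE 0.35, limma adjusted p = 0.0537). In the authors' deposited table its adjusted p is 7.72e-12. Replicate 2 of the Atrx-intact H3.3WT tumours had the highest Hoxa5 of all, at 1234, with Emx2 at 11.7 and Lmx1b at 287. Irx1, a hindbrain list gene and paralogue of Irx3, averaged 1537 ± 139 in Atrx-floxed G34R against 954 ± 228 in Atrx-floxed H3.3WT tumours without overlap (log2 0.72, SE 0.22, limma adjusted p = 0.9997). It was at 8.55 in replicate 3 of the Atrx-intact H3.3WT tumours and at 678 or more elsewhere.

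Of the isthmus genes, the organiser signal Fgf8 averaged 19.8 ± 7.44 normalized counts in Atrx-floxed H3.3WT tumours against 4.0 ± 4.66 in Atrx-intact H3.3WT tumours (n = 4 each), without overlap (log2 2.7, SE 0.96, limma adjusted p = 0.975; 2.18 without replicate 3 of the Atrx-intact tumours). The 4.0 lay near the floor of 3 reads, 2.56 to 3.25 normalized counts in the Atrx-intact H3.3WT libraries. Fgf8 thus reached the mean of 10 needed for a test only through the Atrx-floxed group. Cnpy1, expressed at the isthmus, averaged 453 ± 253 against 80.2 ± 63.8 in the same pair (log2 3.12, SE 1.14, limma adjusted p = 0.975; 1.91 without replicate 3). Lmx1a, the paralogue of Lmx1b, averaged 50.6 ± 51.9 in Atrx-floxed G34R against 3.15 ± 2.44 in Atrx-intact H3.3WT tumours without overlap (log2 3.23, SE 1.01, limma adjusted p = 0.999), and the authors' deposited table gives 4.0 with an adjusted p of 0.0267. The 3.15 lay at about the floor of 3 reads, so Lmx1a too was tested only through the group where it was high, and the size of its difference is uncertain.

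Over all 15 libraries and the 28 pairs of the 8 tested members, the most alike were En1 and En2 (Pearson r 0.807 of log2 values), but r was 0.102 over the 14 libraries without replicate 3 of the Atrx-intact H3.3WT tumours. For En2 and Lmx1b it was 0.680 with that library and 0.299 without it. Emx2 and Otx1 had 0.582 with it and 0.509 without it. The most opposed were Otx1 and Gbx2, with -0.680 and -0.612, followed by Lhx2 and Gbx2, with -0.607 and -0.534.

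Among 13283 genes with a mean of at least 50, those most like En2 were Bcas1os1 (0.955) and Sox10 (0.952), the oligodendrocyte lineage factor, and those most like En1 were Efs (0.839) and Parp8 (0.836). These too rested on that replicate 3, since without it r was 0.514 and 0.318 for En2 and 0.399 and 0.364 for En1. For the other 6 members r without it was 0.735 or more. Since these genes were picked by their r over all 15 libraries, that value is not independent of the choice. Lhx2 was most like Tln2 (0.892 over all 15 libraries) and the glial glutamate transporter Slc1a3 (0.888), Lmx1b most like Chst5 (0.867) and Cryl1 (0.841) and Gbx2 most like Sept9 (0.866) and Adm (0.832). Otx1 was most like Tmem231 (0.911) and Klhl40 (0.846), Emx2 most like Lysmd4 (0.787) and Chmp2b (0.782), and Irx3 most like Slc22a5 (0.886) and its chromosome neighbour in the Iroquois cluster, Irx5 (0.849). All points share the same libraries.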

How the data were processed

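The 15 TruSeq mRNA libraries came from tumour RNA purified with the Qiagen RNeasy kit (source: the labels' protocols). The submitters' processing notes name STAR 2.7, HTSeq, DESeq2 and the mm10 build. Whether reads were counted by strand, and on which annotation, is not given in the sources used here. Deposited by the authors are 5 tables of 54232 genes, each with a signal per library (read count divided by 1 size factor per library), its mean, and DESeq2's log2 fold changes, their standard errors, test scores and p-values, raw and adjusted, per the file headers. Every value was a whole multiple of that of 1 read (100% within 0.01), so reads were recovered by division. In 3 of 38 library columns the step lay near 1, and these were left out of the recovery. Depth was 22807315 to 35679129 reads in genes per library, so the floor of 3 reads was 2.56 to 3.62 normalized counts.

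Gene IDs were matched to symbols of the mm10 annotation (54079 of 54232). Values per library are the reads scaled over all 15 libraries by the median of ratios. Each pair was fitted with limma 3.58.1 (trend, robust; R 4.3.3) on log2(value + 1), genes with a mean of at least 10, Benjamini-Hochberg over all genes, in its own table, with means in that table's scale; pooled and interaction effects were fitted on all 15 libraries. Alternatives were no filter, pseudocounts of 0.5 and 5, edgeR 4.0.16 and DESeq2 1.42.0 on the recovered reads, Xist as a covariate, 1 fit of all 4 groups for the pairs, and leaving out each library. The scripts were tested on simulated data. The 9 members and the gene lists were chosen with earlier results of these data known. Besides the members, genes named are Atrx, marker genes, up to 3 list genes with the smallest p per comparison, neighbours within 5 kb and the 2 genes most correlated with each member. Values of 1 gene of the forebrain list are not reported here. Promoter sequences are from RefSeq.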

Additional observations from a re-analysis of the deposited data

Results flagged for a closer look

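In each group of 4 libraries, a library was marked when its gap to the nearest other, divided by the group's range, exceeded 0.829, the critical value for 4 values. Of 27 groups checked, 2 had 3 libraries at the same value, where any other value is marked. In the other 25 groups 2 libraries were marked. The critical value marks about 1 in 20 groups when values are normal and groups independent. It was applied here to normalized counts, not to log2 values, and to genes of the same libraries, so that rate need not hold. On this scale En2 in Atrx-intact H3.3WT replicate 3, at 5.98 against 476 or more in the rest of its group, was not marked. Emx2 stood at 203 normalized counts in Atrx-floxed G34R replicate 3, against at most 19.4 in the other 3 libraries. In the same library the summed markers of cortical projection neurons were at 6670, against at most 1304 in the other 3, those of myelinating oligodendrocytes at 78370, against at most 28918, and those of astrocytes at 69895, against at most 39703. Their part in the Emx2 value was not tested. In Atrx-floxed H3.3WT replicate 2, which had the lowest cortical projection neuron sum of all libraries, 173, Emx2 was at 176. Gbx2 stood at 161 in Atrx-floxed H3.3WT replicate 3, against at most 50.2 in the other 3. The groups with 3 equal values were both of Otx2. It stood at 6.63, or 7 reads, in Atrx-floxed H3.3WT replicate 4 and at 0 in the other 3. It stood at 0.855, or 1 read, in Atrx-intact H3.3WT replicate 3 and at 0 in the other 3, which lies under the 3 reads that a count of 0 allows.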

How the results depend on the processing

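Members called stayed at 0 in every comparison and alternative except under DESeq2 on the recovered reads, which called 1 in Atrx floxed against intact under G34R and 2 in both changes against neither. Of the members' log2 values, 1066 moved by less than 1 SE of the main fit, 17 moved by more and 3 passed the threshold. A value among the 1066 could still change sign. For Irx3 the sign turned in 10 of 21 alternatives for Atrx over all libraries. For Lmx1b it turned in 6 of 15 for G34R in Atrx-floxed tumours.

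Counts of all genes called moved as follows. DESeq2 called 27 and 8 genes for G34R in Atrx-floxed and Atrx-intact tumours (0 by limma), 102 for Atrx under G34R (4), 69 for Atrx under wild-type H3.3 (6), 81 for both changes against neither (4), 85 for Atrx over all libraries (19), 8 for G34R over all libraries (0) and 9 for the interaction (0). For Atrx under G34R, 12 were called with no filter, and 0 by edgeR and with Xist as a covariate. For Atrx under wild-type H3.3, edgeR and the Xist covariate each called 2. For both changes against neither, a pseudocount of 0.5, edgeR and the Xist covariate each called 2. Leaving out 1 library gave 0 to 5, 2 to 8 and 2 to 8 in those 3 pairs and 16 to 27 for Atrx over all libraries. The cause was not tested. The list counts and correlations without a library rich in cortex transcripts were chosen after seeing the data.

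No paired analysis was possible because the labels carry no replicate numbers shared between groups. Depth limits Otx2, with at most 7 reads in a library, and the low counts of Otx1 and Gbx2 and of the list genes Fgf8 and Lmx1a.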
